A study of Rattus norvegicus with 52 samples.

Results

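Cd3d, Cd3e, Cd3g, Cd4, Cd8a, Cd8b, Lck, Cd5, Cd28 and Il7r are 10 genes widely used as T cell markers, and their transcript levels were followed in rat lung after instillation of quaternary ammonium compounds into the trachea. They were named by gene symbol, 10 of 34034 symbols in the count tables, with earlier results of these data known. All 10 were among the 17796 genes with enough counts to be tested. The 52 lung libraries came from SD rats of wild-type genotype that had received 1 of 4 compounds at 1 of 3 dose values, or distilled water, with 4 libraries in each of 13 groups. ABD and ADEB18 were given at 0.125, 0.25 or 0.5. BKC was given at 0.25, 0.5 or 1 and DDAC at 0.0625, 0.125 or 0.25, while Control rats received only the water by the same route. In common use BKC stands for benzalkonium chloride and DDAC for didecyldimethylammonium chloride, surfactant disinfectants with a permanently charged nitrogen; the labels use the short forms alone. ABD and ADEB18 are known here by their codes only. No source used here gives the unit of the dose values, the time between instillation and sampling, or the age and sex of the rats.

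T cells recognise antigen with a receptor whose variable chains cannot signal alone. The signal passes through the CD3 chains, encoded by Cd3d, Cd3e and Cd3g, while the coreceptors CD4 and CD8 bind MHC molecules on the other cell and bring the tyrosine kinase Lck to the receptor. CD28 adds the costimulatory signal, CD5 dampens the receptor's signal, and the interleukin 7 receptor chain made by Il7r keeps resting T cells alive. In the lung, T cells lie in the airway wall, the alveolar septa and the lymphoid tissue around bronchi and vessels. Some of these markers are shared in rats: macrophages and monocytes also carry CD4, and natural killer cells also carry the CD8 alpha chain.

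The upstream sequences of Cd3d, Cd3g and Lck are printed because the levels of these 3 genes moved together across libraries, as described further on, and that of Cd3e because it is the third CD3 chain gene of the same cluster. In the RefSeq gene order Cd3g, Cd3d and Cd3e are direct neighbours, as are Cd8b and Cd8a, and Cd28 lies beside Ctla4 and Cd5 beside Cd6. RefSeq promoter windows on the build GRCr8 were found for 8 of the 10 genes, giving 9 windows because Lck has 2 start sites, and the 250 bases before the start were read. The Cd3d window is chr8:54185269-54185518 on the + strand, Cd3g is chr8:54183919-54184168 on the - strand, and Cd3e is chr8:54211771-54212020 on the - strand. The Lck windows are chr5:147201268-147201517 for start 1 and chr5:147183651-147183900 for start 2, both on the - strand. Sequences run 5′ to 3′ toward the start, and capitals mark matches, on either strand, to AGGAAG (ETS factors), TGTGGT (RUNX factors), AGATAA (bound by Gata3 and its relatives), CAGGTG (an E box), CAGCTG (another E box) or CTTTGA (TCF factors).
Cd3d: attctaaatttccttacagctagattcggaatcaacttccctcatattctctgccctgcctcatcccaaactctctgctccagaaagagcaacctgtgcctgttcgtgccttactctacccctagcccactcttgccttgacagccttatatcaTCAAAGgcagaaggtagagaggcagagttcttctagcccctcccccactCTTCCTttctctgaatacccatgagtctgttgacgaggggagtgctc
Cd3g: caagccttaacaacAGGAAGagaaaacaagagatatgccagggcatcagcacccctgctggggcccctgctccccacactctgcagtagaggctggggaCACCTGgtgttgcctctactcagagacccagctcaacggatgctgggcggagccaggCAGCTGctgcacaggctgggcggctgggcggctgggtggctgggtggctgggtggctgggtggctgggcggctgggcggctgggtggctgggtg
Cd3e: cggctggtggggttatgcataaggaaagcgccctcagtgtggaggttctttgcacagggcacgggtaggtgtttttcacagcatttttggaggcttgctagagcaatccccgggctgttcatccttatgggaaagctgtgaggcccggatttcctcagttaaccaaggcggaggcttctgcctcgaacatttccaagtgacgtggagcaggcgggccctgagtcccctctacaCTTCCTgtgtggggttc
Lck start 1: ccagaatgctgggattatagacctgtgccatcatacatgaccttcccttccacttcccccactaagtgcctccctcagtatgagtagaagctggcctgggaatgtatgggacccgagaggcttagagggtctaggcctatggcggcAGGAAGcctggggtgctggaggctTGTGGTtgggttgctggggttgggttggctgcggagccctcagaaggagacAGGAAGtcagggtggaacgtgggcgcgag
Lck start 2: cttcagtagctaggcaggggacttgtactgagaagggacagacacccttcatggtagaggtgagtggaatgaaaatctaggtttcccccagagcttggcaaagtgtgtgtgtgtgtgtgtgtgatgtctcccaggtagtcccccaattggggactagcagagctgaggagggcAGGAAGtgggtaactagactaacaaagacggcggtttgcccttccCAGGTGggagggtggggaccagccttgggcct
All 5 printed windows hold the ETS core AGGAAG or its reverse complement, and none of the matches in them overlap. Over the 9 windows of the T cell genes, 7 hold AGGAAG, against 29.5% of 33469 RefSeq windows of the same length. CAGGTG was in 5 of the 9 windows, against 15.9% of all windows, TGTGGT in 3, against 14.5%, CAGCTG in 2, against 12%, AGATAA in 1, against 10.3%, and CTTTGA in 1, against 13.9%. These are matches of letters and not evidence of binding.

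Depth was similar among libraries: total counts ranged from 8026084 to 13852249 with a median of 10837549, with counts in 16932 to 19355 genes. The 10 T cell genes together held 757 to 2130 counts per library, a summed level of 91.5 to 182 CPM, that is counts scaled to library size, with a median of 124. Every one of the 10 genes had counts in all 52 libraries, with the lowest single values at 4 counts for Cd28 and 7 for Cd8b. Of 5 genes of developing thymocytes, 4 had no count in many libraries, namely Ptcra in 17, Dntt in 21, Rag1 in 22 and Rag2 in 45, while Arpp21 had 7 to 66 counts in every library. The libraries are 3′ tag libraries, so a CPM is not divided by transcript length and levels are not compared between genes. In bulk lung RNA, fewer T cells and less RNA per T cell cannot be told apart. The series text gives 4 per group without saying that each library is a separate rat, so the p-values measure the spread between these libraries, which may in part be technical.

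Cd4 alone of the 10 genes was called in edgeR's quasi-likelihood test of any difference among groups (adjusted p = 0.0261), in a table where 24.2% of all genes tested were called. Cd3g followed with an adjusted p of 0.0786, and the other 8 genes had adjusted p between 0.335 for Cd28 and 0.977 for Lck in the same edgeR test. With DESeq2 2 genes were called, Cd4 (adjusted p = 0.00326) and Cd3g (adjusted p = 0.0350). The share of all genes that DESeq2 called across the groups was not counted, so these 2 calls cannot be set against it. The edgeR call of Cd4 was lost without Control replicate 3 (adjusted p = 0.0538), Control replicate 4 (0.0519), BKC 1 replicate 2 (0.0550), BKC 1 replicate 3 (0.0526), DDAC 0.0625 replicate 1 (0.0514) or DDAC 0.0625 replicate 3 (0.0571), and its range over all alternatives was 0.00326 to 0.0571. Cd3g was called by edgeR without ADEB18 0.25 replicate 4 (adjusted p = 0.0148), BKC 0.25 replicate 3 (0.0427) or DDAC 0.25 replicate 1 (0.0477), with a range over alternatives of 0.0148 to 0.183.

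The mean of the lowest and highest groups differed by 1.22-fold for Lck, 1.66-fold for Cd3d, 1.68-fold for Cd3e, 1.89-fold for Il7r, 1.91-fold for Cd3g, 1.92-fold for Cd5, 2.11-fold for Cd8a, 2.12-fold for Cd4, 2.40-fold for Cd28 and 2.80-fold for Cd8b. When the 13 groups were ordered by mean, no gene had a neighbouring pair of groups whose libraries did not overlap, although neighbours among 13 ordered groups lie close by construction. The highest and the lowest group, chosen by their means, did not overlap for Cd3e, Cd8b, Cd28 and Il7r and overlapped for the other 6 genes, which is a description and not a test. DDAC 0.0625 had the highest mean of Cd3e, Cd3g, Lck, Cd28 and Il7r. Control had the highest mean of Cd4 and the lowest of Lck. The summed CPM of the 10 genes averaged 161 ± 16.2 in DDAC 0.0625, the highest group, and 113 ± 18.1 in DDAC 0.25, the lowest, against 130 ± 30.4 in Control (SD, n = 4 each).

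**Figure D1:**
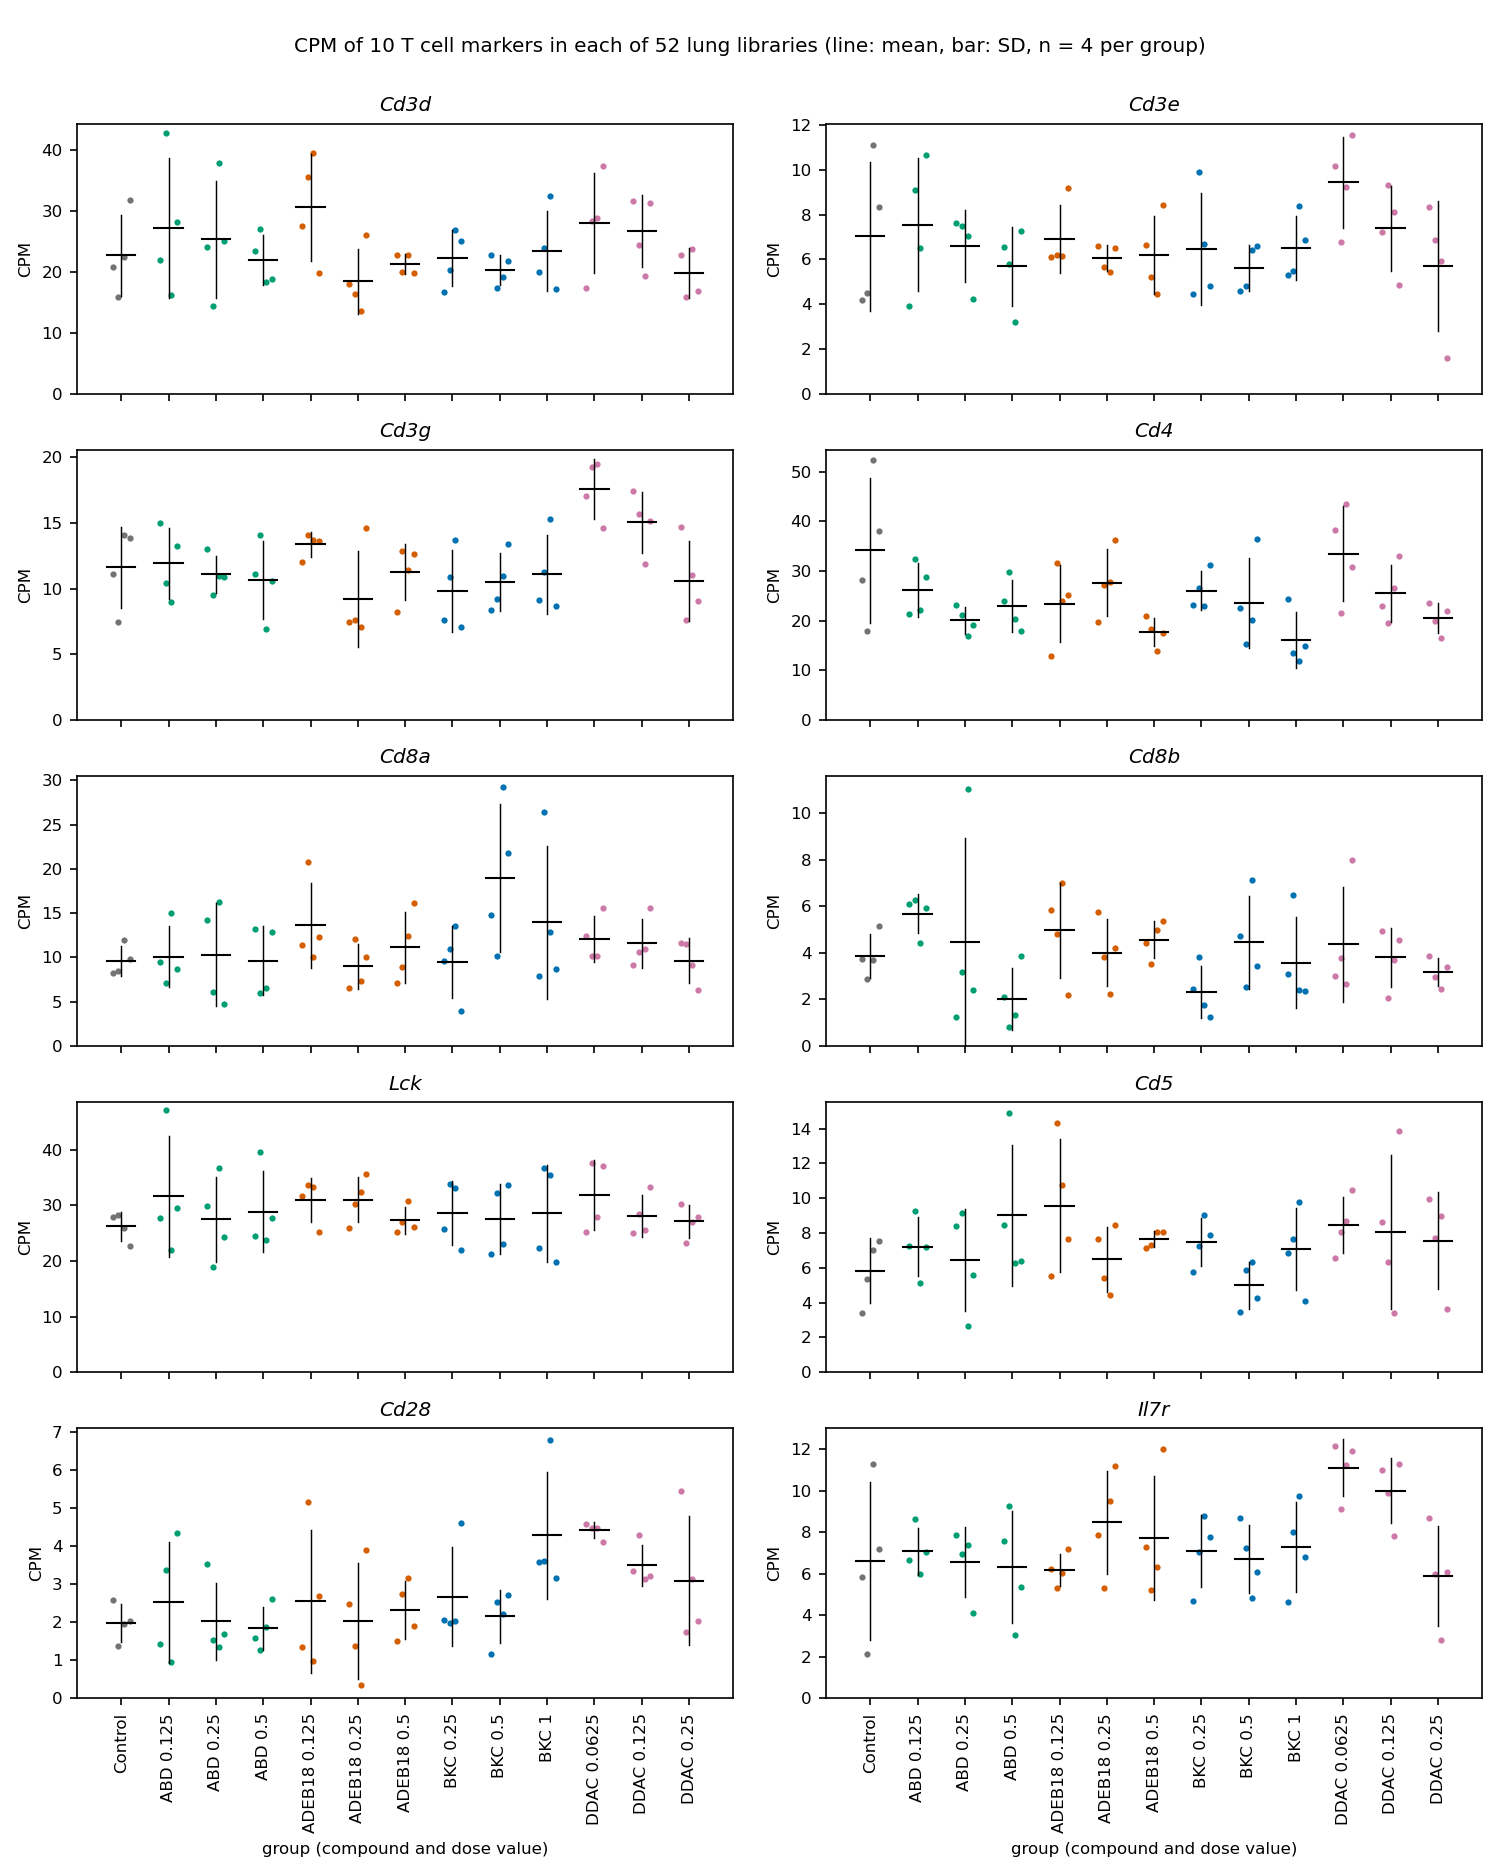
CPM (y axis) of each of the 10 T cell markers in every library, for Control and the 12 dosed groups (x axis), with points for libraries, a horizontal line for the mean and a vertical bar for the SD. The Control libraries of Cd4 spread from 17.9 to 52.4 CPM and have the highest mean, while Lck differs little among groups.

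Against Control, 2 of 120 tests of the 10 genes in 12 comparisons were called, and both were Cd4 at a lower level. In BKC 1 against Control 1 of the 10 genes was called lower, where 10.4% of all genes tested were called and 4.56% were called lower. In ADEB18 0.5 against Control 1 of 10 was called lower, where 4.66% of all genes were called and 2.10% were called lower. None was called in the remaining comparisons, where the share of all genes called was 9.15% in BKC 0.5, 0.208% in BKC 0.25, 2.32% in DDAC 0.0625, 1.48% in DDAC 0.125, 2.47% in DDAC 0.25, 0.0169% in ABD 0.5, 0.0225% in ABD 0.25, 0% in ABD 0.125, and 0.0393% in both ADEB18 0.25 and ADEB18 0.125. At an unadjusted p under 0.05 edgeR counted 12 of the 120 tests and DESeq2 13. DESeq2 also called 2, Cd4 in ADEB18 0.5 and in BKC 1. Over all genes it called 1279 of 14344 in ADEB18 0.5 and 2207 of 16414 in BKC 1. The share of all genes at an unadjusted p under 0.05 was not counted, here or for the other comparisons and lists. The median log2 fold change over the 10 genes lay between -0.15 in DDAC 0.25 and 0.37 in DDAC 0.0625, while the median over all genes was between -0.01 and 0.01.

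The 3 CD3 chains, the part of the receptor complex specific to T cells, gave no call against Control. Cd3e had 5.30, 5.46, 8.38 and 6.89 CPM in BKC 1 and 6.66, 5.21, 4.46 and 8.45 CPM in ADEB18 0.5, against 4.17, 4.48, 11.1 and 8.35 CPM in Control. The dosed libraries all lay inside the Control range. The log2 fold change of Cd3e was -0.11 in BKC 1 (95% interval -0.81 to 0.58) and -0.19 in ADEB18 0.5 (-0.87 to 0.50). Over the 12 comparisons the log2 fold changes of Cd3e ran between -0.33 and 0.42 and those of Cd3d between -0.30 and 0.42. Cd3d had 20.01, 23.9, 32.4 and 17.2 CPM in BKC 1, against 20.8, 15.9, 22.5 and 31.8 CPM in Control, and the groups overlapped (log2 fold change 0.03, 95% interval -0.50 to 0.57). Cd3g ranged between -0.34 in ADEB18 0.25 and 0.59 in DDAC 0.0625.

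Cd4, the coreceptor of helper and regulatory T cells, was called lower in BKC 1 and ADEB18 0.5. It had 24.3, 13.5, 11.8 and 14.9 CPM in BKC 1, against 28.3, 17.9, 52.4 and 38.1 CPM in Control. In ADEB18 0.5 it had 20.9, 18.3, 13.97 and 17.5 CPM. Both dosed groups overlapped Control, whose second library, at 17.9 CPM, lay within their range, and the Control libraries differed more among themselves than those of either dosed group. Mean Cd4 was 16.1 ± 5.59 CPM in BKC 1 and 17.7 ± 2.86 CPM in ADEB18 0.5, against 34.2 ± 14.7 CPM in Control (SD, n = 4 each). The log2 fold change was -1.08 in BKC 1 (SE 0.27, edgeR adjusted p = 0.00659) and -0.95 in ADEB18 0.5 (SE 0.27, edgeR adjusted p = 0.0301). An exact two-sided permutation test of the 4 against 4 log2 CPM values gave p = 0.0571 for BKC 1 and p = 0.0857 for ADEB18 0.5, with 0.0286 the smallest p this design allows.

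The Cd4 calls depended on single libraries, more so in ADEB18 0.5 than in BKC 1. Leaving out 1 library of the compared groups at a time, edgeR called Cd4 in 7 of 8 fits for BKC 1 and in 3 of 8 for ADEB18 0.5. In BKC 1 the call was lost without Control replicate 3 (log2 fold change -0.80, edgeR adjusted p = 0.0519) and with only BKC 1 and Control in the fit (-1.09, adjusted p = 0.0628), and adjusted p over all alternatives was 0.00141 to 0.0628. In ADEB18 0.5 it was lost without Control replicate 3 (-0.67, edgeR adjusted p = 0.139), Control replicate 4 (-0.90, 0.0911), ADEB18 0.5 replicate 2 (-0.97, 0.0719), ADEB18 0.5 replicate 3 (-0.85, 0.104) or ADEB18 0.5 replicate 4 (-0.94, 0.0720), and with only ADEB18 0.5 and Control in the fit (-0.96, 0.0520), within a range of 0.00908 to 0.139. The direction was the same in every alternative run for both groups. Cd4 was below Control in 12 of 12 comparisons, which share the same 4 Control libraries, and 7 of them had an unadjusted edgeR p under 0.05. Its log2 fold changes were -0.77 in ABD 0.25, -0.74 in DDAC 0.25, -0.58 in ABD 0.5, -0.55 in ADEB18 0.125 and -0.54 in BKC 0.5, none called, and -0.03 in DDAC 0.0625. DDAC 0.25 was called without Control replicate 2 (-0.96, edgeR adjusted p = 0.0498, within a range of 0.0498 to 0.412 over all alternatives).

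Some macrophage genes were called higher and others lower in the groups where Cd4 was called. Of 10 macrophage and monocyte markers 9 could be tested, and in BKC 1 the scavenger receptor Cd163, the sialic acid receptor Siglec1, the lipopolysaccharide coreceptor Cd14 and the lysosomal protein Cd68 were called higher while Lyz2, which encodes lysozyme, and Csf1r, the growth factor receptor of macrophages, were called lower. In ADEB18 0.5 Cd14 was called higher, at 19.2 ± 4.25 CPM, against 6.87 ± 1.95 CPM in Control (log2 fold change 1.47, edgeR adjusted p = 0.0177), and Lyz2 and Csf1r were called lower. Over all genes edgeR called 10.4% in BKC 1 and 4.66% in ADEB18 0.5, in either direction. Lyz2 averaged 8858 ± 1355 CPM in BKC 1 and 9576 ± 1652 CPM in ADEB18 0.5, against 15372 ± 2735 CPM in Control (SD, n = 4 each), with edgeR log2 fold changes of -0.80 and -0.68. Csf1r averaged 108 ± 22.9 CPM in BKC 1 and 123 ± 9.90 CPM in ADEB18 0.5, against 175 ± 11.1 CPM in Control (log2 fold changes -0.69 and -0.52, both called by edgeR). The summed CPM of the list, most of it Lyz2, was 7154 to 10255 in BKC 1 and 7446 to 10880 in ADEB18 0.5, against 12637 to 18879 in Control, without overlap. Cd68 went the other way, with 95.4 ± 26.3 CPM in BKC 1, against 49.8 ± 5.16 CPM in Control (log2 fold change 0.94, edgeR adjusted p = 0.0117). In BKC 0.5, where Cd4 was not called, Lyz2 was called lower (log2 fold change -0.57) and Cd68 higher (0.83). Marco, a receptor of resident alveolar macrophages in mice, had no count in 36 of the 52 libraries. The part of these macrophage genes in the Cd4 values was not tested.

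**Figure D2:**
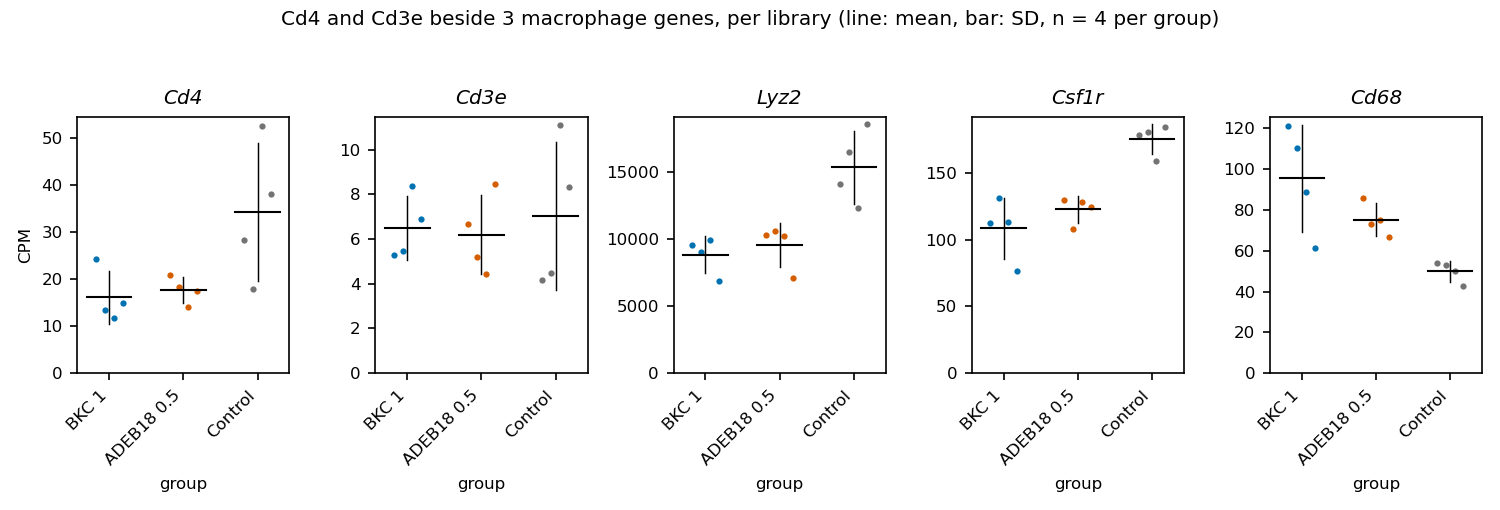
CPM (y axes) of Cd4, Cd3e and the macrophage genes Lyz2, Csf1r and Cd68 in BKC 1, ADEB18 0.5 and Control (x axes), with points for libraries, lines for means and bars for SD. Lyz2 and Csf1r are lower in every dosed library than in any Control library and Cd68 is higher, whereas Cd4 overlaps Control through 1 Control library at 17.9 CPM and Cd3e overlaps throughout.

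The CD8 chains, which mark cytotoxic T cells as a pair, gave no call. Cd8a had 14.8, 10.2, 29.3 and 21.9 CPM in BKC 0.5, against 8.26, 8.46, 11.9 and 9.85 CPM in Control. Of the BKC 0.5 libraries 3 lay above all Control libraries and 1 lay within them. Its log2 fold change was 0.98 (SE 0.38, edgeR adjusted p = 0.0926). Cd8b in the same groups had 4.71, 2.52, 7.16 and 3.45 CPM in BKC 0.5, against 3.75, 2.86, 3.70 and 5.15 CPM in Control, with overlap and a log2 fold change of 0.20 (95% interval -0.75 to 1.15). In BKC 1 Cd8a had 7.87, 26.5, 12.9 and 8.70 CPM, so that 1 library held most of the excess (log2 fold change 0.53, 95% interval -0.23 to 1.29). Of 10 natural killer and cytotoxic genes none was called by edgeR in any of the 12 comparisons, with 12 of 120 tests at an unadjusted p under 0.05 and 5 calls by DESeq2. Their summed CPM was 111 to 232 in BKC 0.5, against 127 to 188 in Control, and the part of those cells in the Cd8a values was not tested.

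Lck, the kinase that starts receptor signalling, was the most even of the 10 genes. It had 22.4, 36.7, 35.5 and 19.8 CPM in BKC 1 and 25.2, 26.9, 30.9 and 26.1 CPM in ADEB18 0.5, against 27.9, 28.2, 26.0 and 22.6 CPM in Control. The groups overlapped. Its 12 log2 fold changes against Control lay between 0.05 and 0.29, all positive, with the 12 intervals of 95% spanning -0.37 to 0.70. Cd5, the inhibitory receptor, had log2 fold changes between -0.23 in BKC 0.5 and 0.71 in ADEB18 0.125 (edgeR adjusted p = 0.539 for the larger), and none was called.

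Cd28, the costimulatory receptor, had 3.59, 3.60, 6.77 and 3.17 CPM in BKC 1, against 2.59, 1.37, 1.94 and 2.04 CPM in Control. All 4 BKC 1 libraries were above all 4 Control libraries, a separation seen for 13.8% of all genes tested in this comparison. The log2 fold change of 1.10 (SE 0.50) had an edgeR adjusted p of 0.167. These values rest on 31 to 59 counts per BKC 1 library and 11 to 31 per Control library. Il7r had 4.62, 8.02, 9.76 and 6.80 CPM in BKC 1, against 5.84, 2.12, 11.3 and 7.19 CPM in Control, and the groups overlapped (log2 fold change 0.13, 95% interval -0.55 to 0.81).

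**Figure D3:**
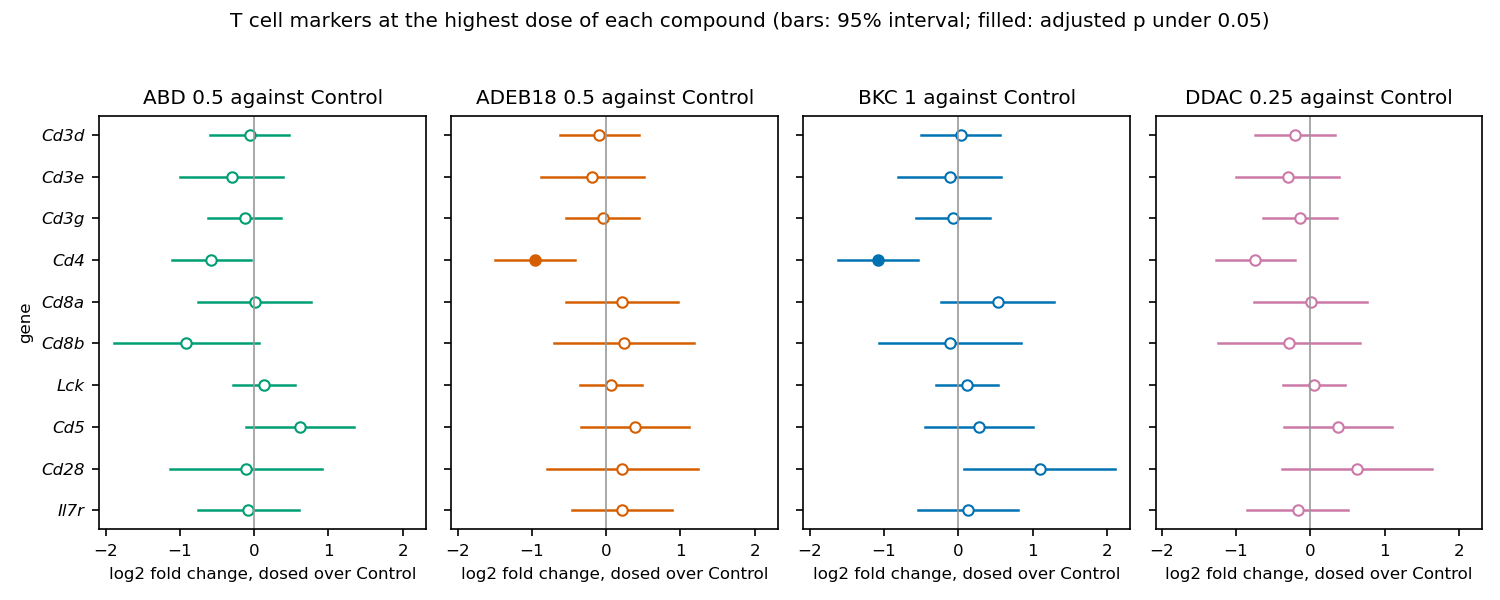
Log2 fold change of each T cell marker (rows) against Control at the highest dose of each compound, with points for edgeR estimates and horizontal bars for 95% intervals; filled points have an adjusted p under 0.05. Cd4 is the only filled point, in ADEB18 0.5 and BKC 1, and it is left of 0 in all 4 panels.

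In the DDAC series the summed level of the T cell markers was highest at the lowest dose value. Against Control at DDAC 0.0625, 9 of the 10 genes had positive log2 fold changes with a median of 0.37, beside a median of 0.00 over all genes, but none was called. Cd3g had 17.0, 19.3, 19.5 and 14.6 CPM in DDAC 0.0625, against 11.1, 7.47, 14.1 and 13.8 CPM in Control. Cd28 had 4.58, 4.48, 4.48 and 4.11 CPM in DDAC 0.0625, against 2.59, 1.37, 1.94 and 2.04 CPM in Control. For both genes every DDAC 0.0625 library was above every Control library, a separation that 10.1% of all genes showed in this comparison. The log2 fold changes were 0.59 for Cd3g (SE 0.25, edgeR adjusted p = 0.204) and 1.14 for Cd28 (SE 0.50, edgeR adjusted p = 0.247). Il7r had 12.2, 9.13, 11.3 and 11.9 CPM in DDAC 0.0625, against 5.84, 2.12, 11.3 and 7.19 CPM in Control, with overlap through 1 Control library (log2 fold change 0.74, SE 0.33, edgeR adjusted p = 0.262).

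In order of dose the means of Il7r were 6.61 ± 3.79 CPM in Control, 11.1 ± 1.38 in DDAC 0.0625, 10.005 ± 1.57 in DDAC 0.125 and 5.89 ± 2.41 in DDAC 0.25, and those of Cd3g were 11.6 ± 3.08 CPM in Control, 17.6 ± 2.28 in DDAC 0.0625, 15.1 ± 2.33 in DDAC 0.125 and 10.6 ± 3.05 in DDAC 0.25 (SD, n = 4 each). Cd28 had 3.34, 4.30, 3.13 and 3.21 CPM in DDAC 0.125, all above the Control libraries, as was 1 of 10 markers where 8.84% of all genes did not overlap (log2 fold change 0.81, SE 0.50, edgeR adjusted p = 0.475). Il7r in DDAC 0.25, at 8.70, 5.99, 2.81 and 6.07 CPM, was below all 4 DDAC 0.0625 libraries, a separation found for 5.15% of all genes. The log2 fold change of DDAC 0.25 over DDAC 0.0625 was -0.91 for Il7r (SE 0.34, edgeR adjusted p = 0.662), -0.73 for Cd3g (SE 0.25, adjusted p = 0.593), -0.72 for Cd3e (SE 0.34, adjusted p = 0.751) and -0.71 for Cd4 (SE 0.27, adjusted p = 0.679). None of the 10 genes was called in that comparison, where 0.0225% of all genes were.

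The summed level of B cell markers was also highest in DDAC 0.0625. All 10 markers had positive log2 fold changes against Control, with a median of 0.85, and Cd79b, a signalling chain of the B cell receptor, was called by edgeR, while DESeq2 called 3 of the 10. Over all genes edgeR called 2.32% in this comparison and DESeq2 735 of 12964. Cd79b had 23.2, 45.6, 45.03 and 21.3 CPM in DDAC 0.0625, against 12.01, 5.35, 12.03 and 22.3 CPM in Control (log2 fold change 1.38, SE 0.34, edgeR adjusted p = 0.0180). The 2 groups overlapped through 1 Control library. The summed CPM of the B cell list was 157 to 236 in DDAC 0.0625, against 59.6 to 134 in Control, and that of the T cell markers 147 to 182, against 94.2 to 162. Among 6 genes of leukocytes in general all 6 had positive log2 fold changes in DDAC 0.0625 with a median of 0.26, and their summed CPM was 857 to 958, against 700 to 831 in Control. The part of B cells or of leukocytes as a whole in the T cell values was not tested.

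**Figure D4:**
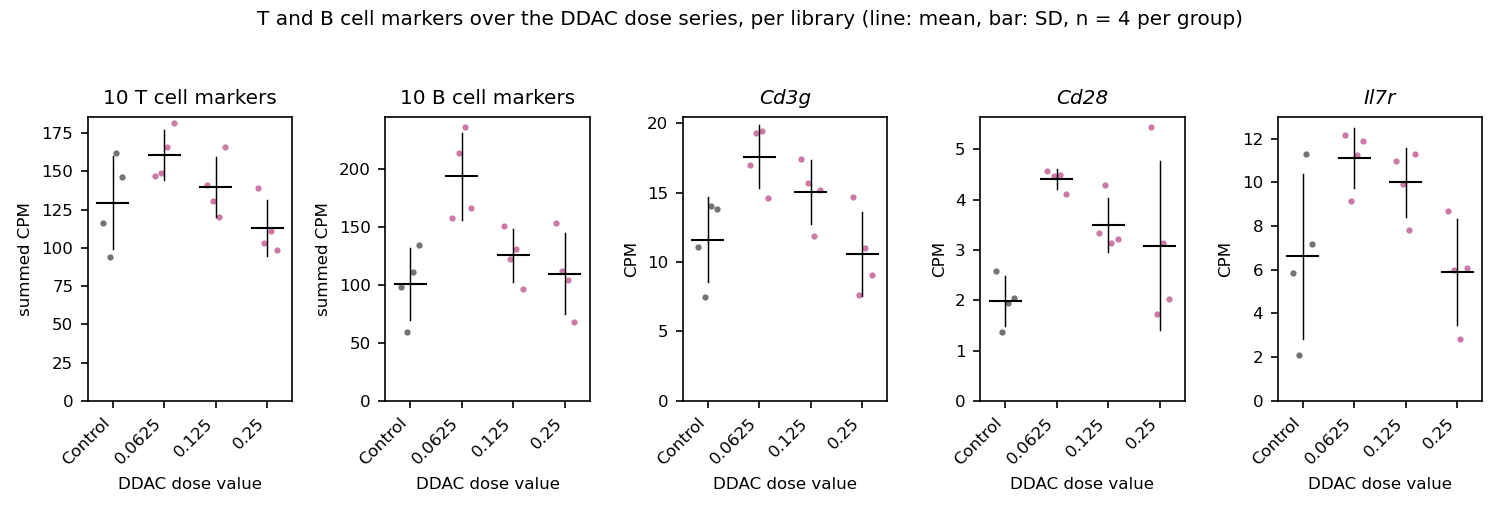
Summed CPM of the 10 T cell markers and of the 10 B cell markers, and CPM of Cd3g, Cd28 and Il7r (y axes), for Control and DDAC 0.0625, 0.125 and 0.25 (x axes), with points for libraries, lines for means and bars for SD. The means are highest at 0.0625 in every panel, where the T cell sum averaged 161 and the Control sum 130.

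The highest against the lowest dose of each compound gave no call among 40 tests by edgeR or DESeq2, with 6 at an unadjusted p under 0.05 by edgeR and 7 by DESeq2. The share of all genes called was 3.99% in BKC, 2.44% in ADEB18, 0.0225% in DDAC and 0.0169% in ABD. Cd8b had 2.12, 0.809, 1.34 and 3.86 CPM in ABD 0.5, against 6.09, 6.27, 4.43 and 5.95 CPM in ABD 0.125. All ABD 0.5 libraries were below all ABD 0.125 libraries, a separation that 2.93% of all genes showed. The log2 fold change was -1.46 (SE 0.48, edgeR adjusted p = 0.740), while that of Cd8a in the same comparison was -0.06 (95% interval -0.82 to 0.69). Cd4 in BKC 1 over BKC 0.25 had a log2 fold change of -0.69 (SE 0.27, edgeR adjusted p = 0.150), and was called without BKC 1 replicate 1 (-0.95, adjusted p = 0.0405, within a range of 0.0405 to 0.411 over all alternatives).

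Differences between compounds in their highest minus lowest dose effect were tested for all 6 pairs. Each compound spans a 4-fold range of dose values, but at different values. None of the 60 tests was called by edgeR or DESeq2, with 3 at an unadjusted p under 0.05 by edgeR and 5 by DESeq2, and over all genes the share called was 0.0225% for BKC against ADEB18, 0.00562% for BKC against DDAC, 0.0225% for BKC against ABD, 0.0337% for ADEB18 against DDAC, 0.118% for ADEB18 against ABD and 0.0112% for DDAC against ABD. The largest difference was that of Cd8b, 2.07 on the log2 scale for BKC against ABD (95% interval 0.70 to 3.44, edgeR adjusted p = 0.232). Il7r differed by 1.23 for ADEB18 against DDAC (0.27 to 2.18, adjusted p = 0.392) and Cd3g by 0.91 for BKC against DDAC (0.20 to 1.61, adjusted p = 0.467).

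The 4 compounds were set against each other at equal dose values in 12 pairs, 3 at 0.125, 6 at 0.25 and 3 at 0.5, with p-values adjusted over all genes within each pair. None of 120 tests was called by edgeR or DESeq2, with 6 at an unadjusted p under 0.05 by edgeR and 7 by DESeq2. At 0.125 the share of all genes called was 1.05% for ADEB18 against DDAC, 0.0169% for ADEB18 against ABD and 1.97% for DDAC against ABD. At 0.25 it was 0% for BKC against ADEB18, 0.0337% for BKC against DDAC, 0.129% for BKC against ABD, 1.31% for ADEB18 against DDAC, 0.0169% for ADEB18 against ABD and 1.29% for DDAC against ABD. At 0.5 it was 0% for BKC against ADEB18, 8.28% for BKC against ABD and 3.51% for ADEB18 against ABD.

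If the short forms have their common meaning, BKC carries a benzyl group and DDAC a pair of decyl chains. Both were given at 0.25. Cd4 had 23.2, 26.6, 23.02 and 31.3 CPM in BKC 0.25, against 23.6, 19.96, 16.5 and 21.9 CPM in DDAC 0.25, and the groups overlapped. That gave a log2 fold change of 0.34 (95% interval -0.19 to 0.88, edgeR adjusted p = 0.836). A p that misses the threshold does not show that the compounds act alike. At 0.5 Cd8a had 14.8, 10.2, 29.3 and 21.9 CPM in BKC 0.5, against 13.2, 6.01, 6.53 and 12.8 CPM in ABD 0.5, with overlap (log2 fold change 0.97, 95% interval 0.22 to 1.73, edgeR adjusted p = 0.0993). Cd8b differed by 1.15 between ADEB18 0.5 and ABD 0.5 (0.18 to 2.12, edgeR adjusted p = 0.179) and by 1.11 between BKC 0.5 and ABD 0.5 (0.14 to 2.09, adjusted p = 0.153). Cd5 differed by -0.85 between BKC 0.5 and ABD 0.5 (-1.58 to -0.12, edgeR adjusted p = 0.145). Between BKC 0.5 and ADEB18 0.5 the Cd5 libraries did not overlap, with 3.46, 5.87, 6.31 and 4.29 CPM in BKC 0.5, against 7.16, 7.33, 8.06 and 8.05 CPM in ADEB18 0.5, where 3.89% of all genes were separated in this way (log2 fold change -0.62, 95% interval -1.34 to 0.11, edgeR adjusted p close to 1). At 0.125 Il7r had 6.24, 5.31, 6.03 and 7.18 CPM in ADEB18 0.125, against 10.996, 9.90, 7.83 and 11.3 CPM in DDAC 0.125. These groups did not overlap, as was so for 7.54% of all genes, and the log2 fold change was -0.69 (-1.37 to -0.02, edgeR adjusted p = 0.314).

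Other genes of T cells were read from lists beside the 10 markers. Of 20 genes of receptor signalling and costimulation 18 were tested, and none was called against Control in any of the 12 comparisons by edgeR or DESeq2, with 14 of 216 tests at an unadjusted p under 0.05 by edgeR and 15 by DESeq2. Lat, an adaptor, had a log2 fold change of -0.60 in BKC 0.5 (edgeR adjusted p = 0.0976), the kinase Fyn 0.57 in DDAC 0.0625 (0.121) and the phosphatase Ptprc 0.40 in DDAC 0.0625 (0.110). Of the 18 genes 13 had positive log2 fold changes in DDAC 0.0625, with a median of 0.29. Among 7 tested genes of naive and recirculating T cells, 4 of 84 tests were called by edgeR, all lower. Klf2, a transcription factor that is also abundant in endothelium, was called lower in BKC 1 (589 ± 46.7 CPM), BKC 0.5 (472 ± 152 CPM) and ADEB18 0.5 (516 ± 38.4 CPM), against 1034 ± 258 CPM in Control (SD, n = 4 each). Satb1, a chromatin organiser of T cells, was called lower in BKC 0.5 (log2 fold change -0.41, edgeR adjusted p = 0.0291). Of 8 tested effector and regulatory genes, Gata3, the factor of type 2 helper cells, was called lower in BKC 1 (log2 fold change -0.60, edgeR adjusted p = 0.0374), and Ifng, Il2, Il4 and Il13 were below the count filter.

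Among 12 tested chemokines and receptors that guide T cells, 3 of 144 tests were called by edgeR, all lower. Ccl21, which draws naive T cells into lymphoid tissue, was called lower in ADEB18 0.5 (43.4 ± 5.42 CPM) and BKC 0.5 (57.7 ± 5.96 CPM), against 103 ± 4.04 CPM in Control (SD, n = 4 each). Its edgeR log2 fold changes were -1.24 and -0.83 in those groups. In BKC 1 Ccl21 was not called, at 73.0, 73.7, 76.3 and 54.9 CPM, against 99.2, 99.8, 108 and 104 CPM in Control. Ccl5, made by T and natural killer cells among others, was called lower in BKC 1 (90.2 ± 21.8 CPM, against 147 ± 17.4 CPM in Control, log2 fold change -0.70). In the interleukin 7 pathway 1 of 9 genes was called, Il2rg, the shared gamma chain that pairs with the Il7r product, in 1 of 108 tests (87.7 ± 6.25 CPM in BKC 1, against 133 ± 15.3 CPM in Control, log2 fold change -0.60, edgeR adjusted p = 0.0158). In dendritic cell markers 1 of 96 tests was called by edgeR, Zbtb46 at a log2 fold change of -0.71 in BKC 1. Of 6 lung tissue genes edgeR called 3 lower in BKC 1 (Ager, Scgb1a1 and Cldn5), 2 lower in BKC 0.5 (Ager and Cldn5) and 1 lower in ADEB18 0.5 (Ager), and none higher. Over all genes edgeR called 10.4% in BKC 1, 9.15% in BKC 0.5 and 4.66% in ADEB18 0.5, in either direction. Ager, a marker of flat alveolar epithelium, averaged 1321 ± 223 CPM in BKC 1 and 1381 ± 208 CPM in ADEB18 0.5, against 2512 ± 626 CPM in Control, and the endothelial gene Cldn5 averaged 156 ± 17.2 CPM in BKC 1, against 246 ± 52.05 CPM in Control. Foxj1, a factor of ciliated cells, averaged 59.8 ± 10.6 CPM in ADEB18 0.5, against 29.4 ± 8.38 CPM in Control, and was not called (log2 fold change 1.02, edgeR adjusted p = 0.232). Sftpc, the surfactant gene of the cuboidal alveolar cells, averaged 10113 ± 1293 CPM in ADEB18 0.5, against 10008 ± 220 CPM in Control. Their part in these list values was not tested.

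Within groups, a few pairs of the 10 markers varied together from library to library. With the group mean removed from log2 CPM, 41 of 45 pairs had a positive Pearson r over the 52 libraries, and the median r was 0.25. The same was not computed for pairs of other genes. Libraries were permuted within groups 100000 times, and 5 of the 45 pairs passed adjustment over the 45 by r, all positive, and 4 by Spearman's rho. Cd3d and Lck had r = 0.60 (permutation p = 0.00014, adjusted p = 0.0063) and rho = 0.50 (p = 0.00113, adjusted p = 0.0127), and r was 0.51 without the 2 libraries farthest from the median of Cd3d. Cd3d and Cd3g had r = 0.48 (permutation p = 0.00079, adjusted p = 0.0178) and rho = 0.51 (p = 0.00077, adjusted p = 0.0115), with r = 0.53 without the 2 farthest libraries. Cd3g and Cd5 had r = 0.45 (adjusted permutation p = 0.0204) and rho = 0.49 (adjusted p = 0.0115), with r = 0.45 without the 2 farthest libraries. Cd3g passed by r but not by rho with Il7r (r = 0.49, adjusted permutation p = 0.0414; rho = 0.41, adjusted p = 0.0553) and with Lck (r = 0.42, adjusted p = 0.0414; rho = 0.42, adjusted p = 0.0539). Without the 2 farthest libraries their r was 0.41 for Il7r and 0.45 for Lck. Cd8a and Cd8b had r = 0.43 with an adjusted permutation p of 0.074, and Cd4 with Cd8b had the lowest r, -0.14 (adjusted p = 0.457).

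**Figure D5:**
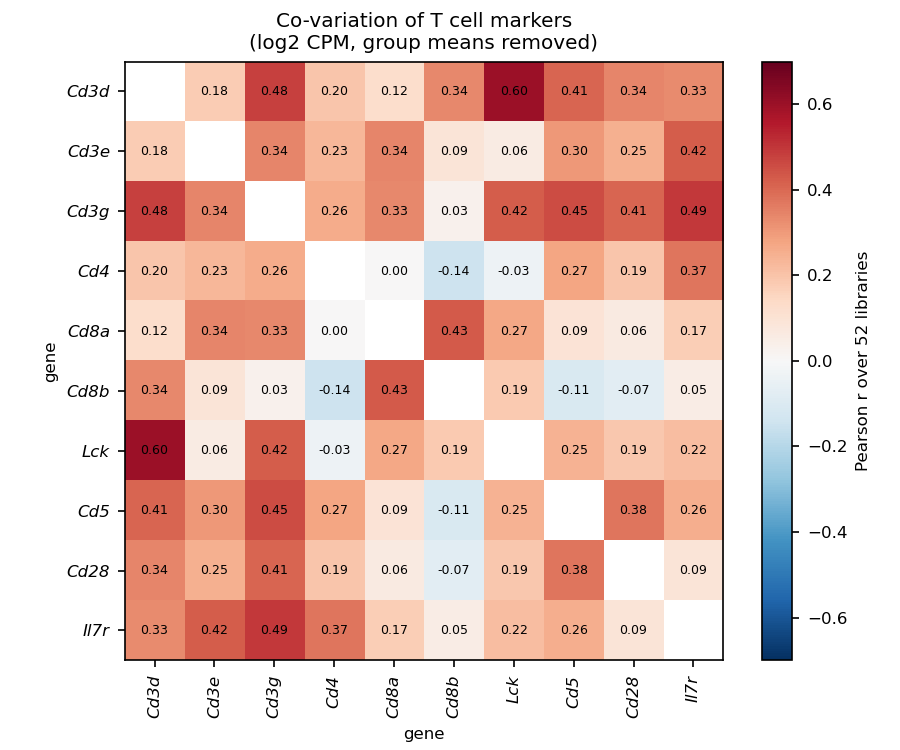
Pearson r between each pair of T cell markers (rows and columns) over 52 libraries, from log2 CPM with group means removed; red is positive and blue negative. The strongest cell is Cd3d with Lck at 0.60, and Cd4 with Cd8b is the lowest at -0.14.

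As a description, Cd3g (r = 0.66) and Cd3d (r = 0.61) followed the mean of the other 9 markers most closely, and Cd4 (0.26) and Cd8b (0.15) least. Candidates for likeness were 11459 other genes with a mean of at least 5 CPM, skipping names that begin with LOC, RGD, AABR, ENSRNOG or Mt. Their residuals were compared with the standardised mean of the 10 markers over the 52 libraries. The most alike were Ptprcap (r = 0.76), Ctsw (0.62), Bcl11b (0.60), Ccr6 (0.58), Fmnl1 (0.57), Cd37 (0.57), Pdpr (0.56), Cd2 (0.56), Fyb1 (0.55) and Satb1 (0.55). They were chosen for this likeness, which was therefore not tested.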

How the data were processed

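Total RNA from rat lung was extracted with Trizol, and 500 ng went into Lexogen QuantSeq 3′ libraries, per the labels' protocols. Per the submitters' processing notes, the tools listed were fastp, STAR and HTSeq and the build mRatBN7.2, and no source used here states versions, strand setting or annotation; reads of overlapping or antisense genes may therefore be shared. The deposited values are raw counts per gene symbol, made by the authors. Groups were taken from the sample titles. CPM were computed with TMM library sizes. Differences were tested with edgeR 4.0.16 (quasi-likelihood, limma 3.58.1, R 4.3.3) on 17796 genes kept by filterByExpr, with 1 term per group over all 52 libraries and 39 residual degrees of freedom, and Benjamini-Hochberg adjustment over all genes tested; a gene was called at an adjusted p under 0.05. Likeness and correlations used log2 CPM with a prior count of 2. The test was checked on simulated counts, with changes set only in more abundant genes. Cd28 and Cd8b, the markers with the lowest mean CPM, lay below that level, so the check does not cover changes at their counts. Alternatives were DESeq2 1.42.0, other scalings, no filter, a replicate block, a fit of the compared groups alone and leaving out each library. All 10 markers were described; from each other list, up to 4 genes with the smallest adjusted p in any comparison with Control were named, besides Cd163 and Siglec1, chosen after their values were seen. A gene that this rule names is not reported here. The markers and lists were chosen with earlier results of these data known. The precision of a level is limited by its counts, 4 to 566 per marker and library.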

Additional observations from a re-analysis of the deposited data

Results flagged for a closer look

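In 5 of 130 sets of 4 libraries, 1 library stood far from the other 3, which is fewer than the 1 in 20 that chance alone gives. Cd3e in ADEB18 0.125 was 9.17 CPM in replicate 4, with the others between 6.09 and 6.19 CPM. Cd3g in ADEB18 0.25 was 14.6 CPM in replicate 4, with the others between 7.09 and 7.58 CPM. Cd28 accounted for the remaining 3 sets, at 3.53 CPM in ABD 0.25 replicate 1 (others 1.34 to 1.70), 4.62 CPM in BKC 0.25 replicate 4 (others 1.97 to 2.06) and 6.77 CPM in BKC 1 replicate 3 (others 3.17 to 3.60).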

How the results depend on the processing

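With only the groups of the comparison in the fit, 0 of the 10 markers were called in ADEB18 0.5 and 0 in BKC 1 against Control, and with DESeq2 2 were called across the 13 groups; the cause was not tested. Leaving out 1 library at a time, the number called was 0 to 2 across the 13 groups, 0 to 1 in ADEB18 0.5 against Control, 0 to 1 in BKC 1 against Control, 0 to 1 in BKC 1 against BKC 0.25 and 0 to 1 in DDAC 0.25 against Control. No direction was reversed in any alternative run; single genes were recomputed only where the unadjusted p was under 0.05. Same-numbered libraries did not deviate together (mean residual correlation 0.00387, against -0.00127 for different numbers), so the numbers were not taken as pairs. The replicate block changed no count of calls: Cd4 had a log2 fold change of -1.08 (edgeR adjusted p = 0.00736) in BKC 1 and -0.95 (0.0329) in ADEB18 0.5 against Control, and an adjusted p of 0.0332 across the groups. Depth limits Cd28 and Cd8b most, with as few as 4 and 7 counts in a library.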

Other observations

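The ratio of Cd4 to Cd8a CPM within a library averaged 3.45 ± 0.971 in Control and, in order of dose, 3.60 ± 2.86, 1.35 ± 0.446 and 1.56 ± 1.14 in BKC 0.25, 0.5 and 1 (SD, n = 4 each). The BKC 0.25 libraries had ratios of 2.43, 2.41, 1.70 and 7.86, so that 1 library raised their mean. The median was 2.42 in BKC 0.25, against 3.64 in Control. In ADEB18 0.125, 0.25 and 0.5 the ratio of Cd4 to Cd8a averaged 1.77 ± 0.554, 3.16 ± 0.686 and 1.79 ± 0.874, with no order by dose. Group means were 2.55 to 2.89 in ABD and 2.22 to 2.87 in DDAC. The ratio of Cd8a to Cd8b CPM averaged 5.46 ± 1.76 in ABD 0.5, the highest group, against 2.57 ± 0.618 in Control (SD, n = 4 each), and the means of the other dosed groups lay between 1.89 in ABD 0.125 and 4.40 in BKC 0.5. These ratios combine genes whose 3′ tags may be captured unequally, and they were not tested.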
